A study of Mus musculus with 4 samples.

Results

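Proteasome genes were examined in mature mouse bone marrow neutrophils that lacked Srf or were WT. The members are the genes named Psm, then a letter from a to g and a number, that the authors tested. All 48 such genes in the deposited gene table had been tested, out of 12634 tested genes and 23284 listed. They comprise 16 genes of the core particle (the Psma and Psmb genes other than the immunoproteasome subunits) and the 3 immunoproteasome subunits Psmb8, Psmb9 and Psmb10. A further 20 are regulatory genes (Psmc and Psmd), counted here as the regulatory particle. Among those 20, Psmd5, Psmd9 and Psmd10 are chaperones of its assembly. The remaining members are 4 activators (Psme), 1 inhibitor (Psmf1) and 4 assembly chaperones (Psmg). RNA was sequenced from 2 Srf KO samples and 2 WT samples, sorted as cells with strong Gr1 and 7/4 staining and high side scatter. The product of Srf, serum response factor (SRF), activates genes of the actin cytoskeleton. How Srf was deleted, in which cells, and the age and sex of the mice are not given in the sources used here. Expression is in FPKM (fragments of a transcript scaled to its length and to the mapped fragments of the library), with 1 value per genotype pooled by the authors, so the depth and the spread between samples are unknown. Log2 folds are given as Srf KO over WT. The number after ± is their standard error, obtained as the authors' fold divided by their statistic. Levels, folds and adjusted p-values come from the authors' deposited table, except where an adjustment is named. A gene is called when the authors' adjusted p is at most 0.05. In such bulk samples, fewer cells of a type and less RNA per cell cannot be told apart.

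The proteasome is the main protease of the cytosol and nucleus and degrades proteins tagged with ubiquitin. Its barrel-shaped core has outer rings of alpha subunits and inner rings of beta subunits, 3 of which cut peptide bonds. A regulatory particle with a ring of ATPases and a lid recognises, unfolds and feeds in the substrate. In cells exposed to interferon and in many blood cells, Psmb8, Psmb9 and Psmb10 replace the constitutive catalytic subunits Psmb5, Psmb6 and Psmb7, which changes the peptides available for MHC class I.

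Few proteasome genes passed the test in Srf KO neutrophils, and those that did were all higher. By the test in the authors' deposited table, 7 of 48 members were called, or 14.6%, against 35.5% of all 12634 genes tested. All 7 were called higher and 0 lower, against 17.7% and 17.8% of all genes tested. The called members were the core genes Psma4, Psma5, Psmb2 and Psmb4, the immunoproteasome gene Psmb9 and the assembly chaperones Psmg1 and Psmg2. The regulatory particle, the activators and the inhibitor had 0 called members. Beside these 0 counts, 5 members had an unadjusted p of at most 0.05 without being called, namely Psma2, Psma8, Psmb1, Psmd7 and Psme1.

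The differences were small but mostly in one direction. The median log2 fold of the members was 0.25, a level 19.3% above WT, against 0.08 for all genes with a fold. The median absolute log2 fold was 0.25 for the members and 0.48 for all genes. The pooled value was higher in Srf KO for 40 of 48 members, or 83.3%, against 54.1% of all genes tested and 40.2% of genes that reached 20 FPKM in at least 1 genotype. In that upper class of expression, 36 members had a median log2 fold of 0.28, against -0.17 for all such genes. Split at a transcript length of 1200 nucleotides, the 11 shorter members of the class had a median of 0.37, against 0.34 for all its shorter genes. Its 25 longer members had a median of 0.22, against -0.29 for all its longer genes. Those 25 ran only from 1201 to 3112 nucleotides (median 1628), so the split does not hold length fixed. Their median was 0.006 after the length adjustment given below, and 0.30 with expression level adjusted as well. Of these 36 members 5 were called higher (13.9%) and 0 lower, against 46.5% of all genes of the class called, 15.3% higher and 31.2% lower. The implied standard errors of the members had a median of 0.19, below the 0.24 of all genes. Of the members, 38 had an absolute log2 fold below 0.43, the smallest that was called for any gene.

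**Figure D1:**
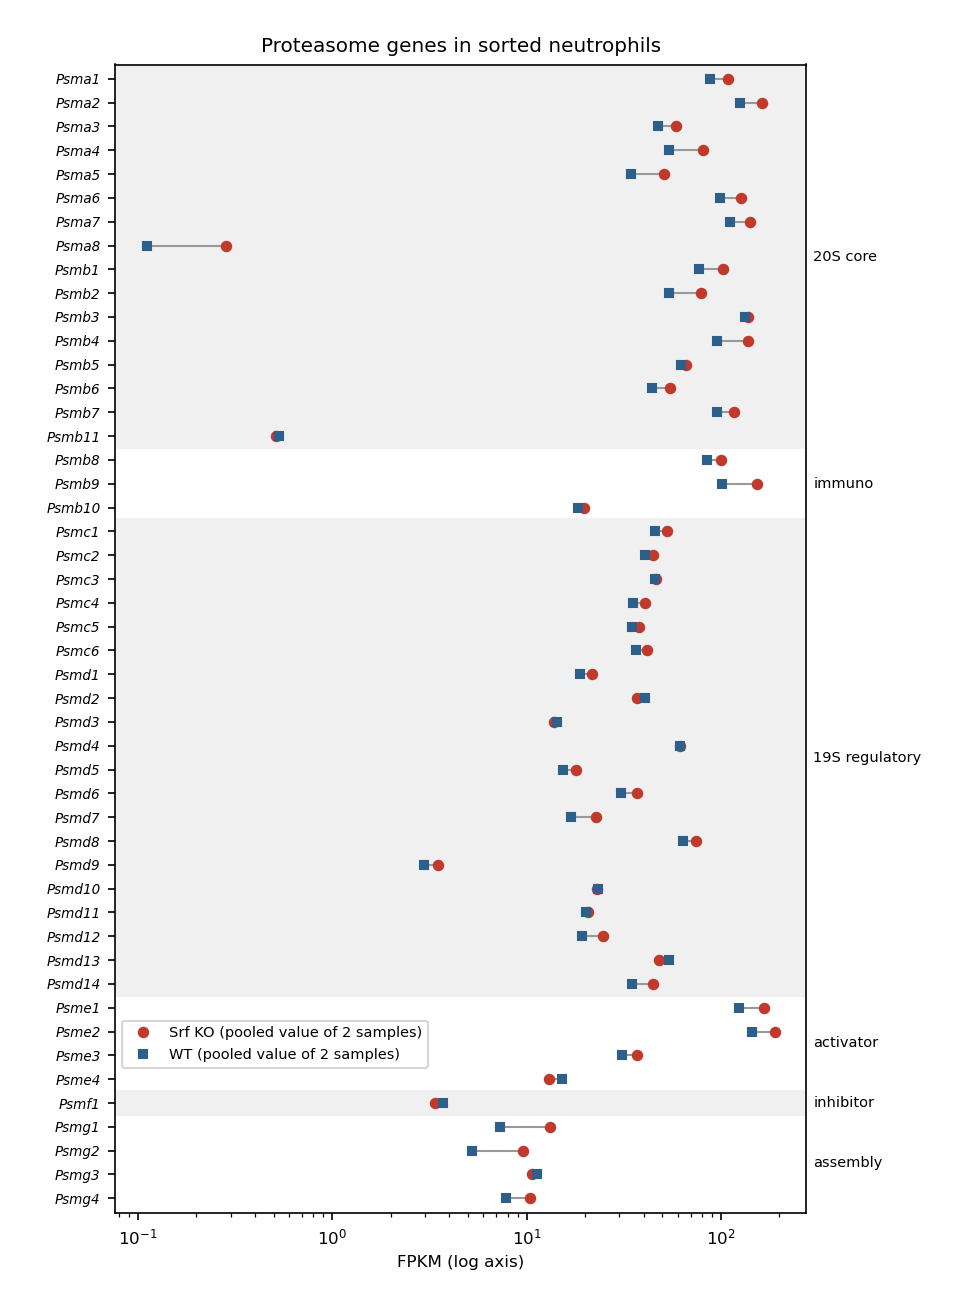
FPKM of the 48 proteasome genes on a log axis, with circles for Srf KO and squares for WT, each the authors' pooled value of 2 samples. Most circles lie a little to the right of their squares, and Psma8 and Psmb11 stand below 1 FPKM in both genotypes.

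**Figure D2:**
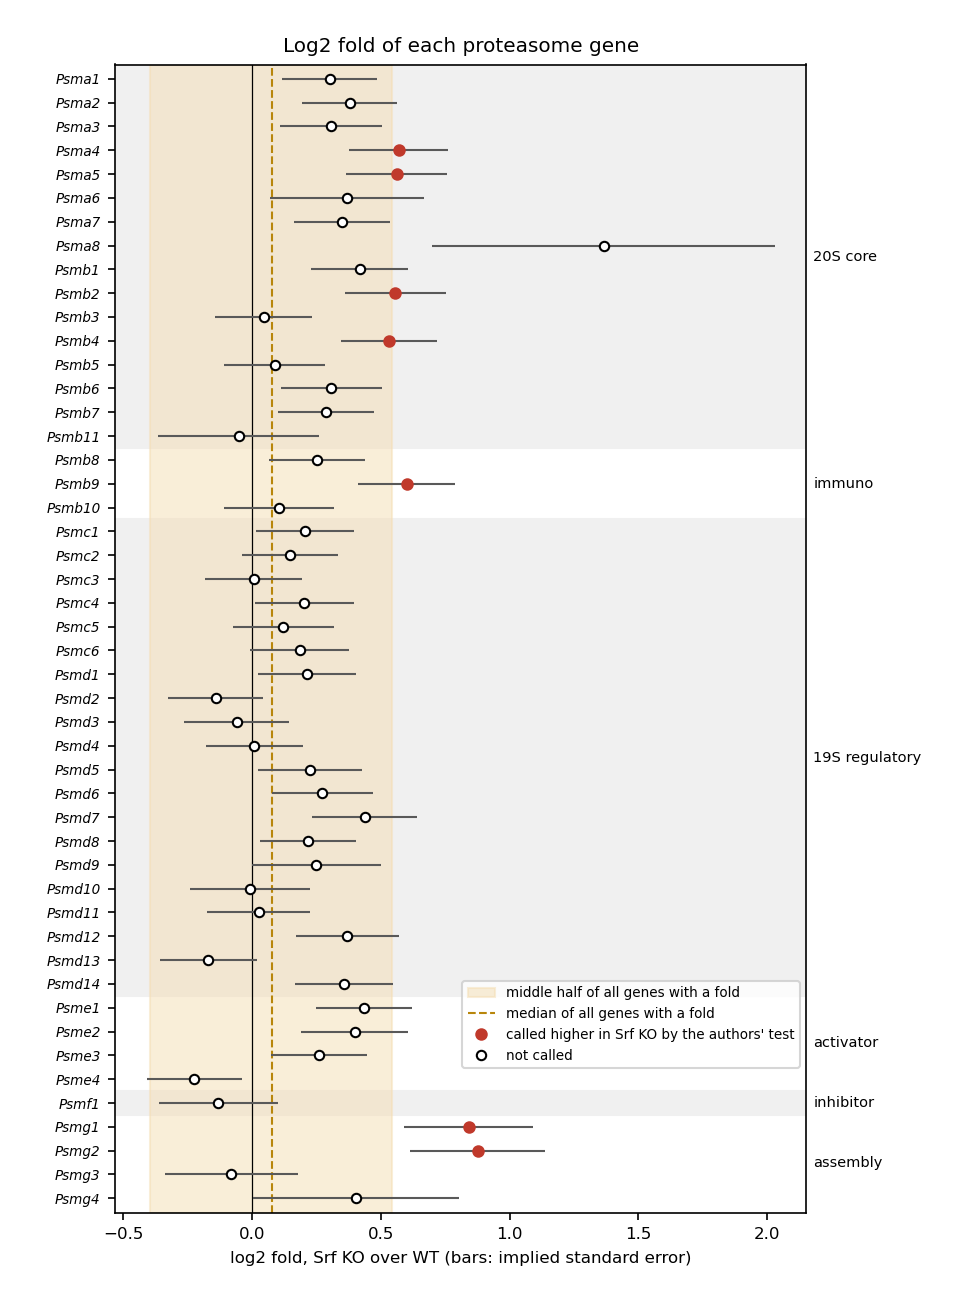
Log2 fold, Srf KO over WT, of each proteasome gene, with bars for the implied standard error, filled circles for the 7 called members and open circles for the rest. The shaded band is the range between the quartiles of all genes with a fold, from -0.40 to 0.54, and the dashed line their median of 0.08.

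The alpha ring, which gates entry to the core, was higher in Srf KO by pooled value for all 8 genes, and 2 were called. Psma4 stood at 80.5 FPKM in Srf KO and 54.3 FPKM in WT, a log2 fold of 0.57 ± 0.19 (adjusted p = 0.0126) in the authors' deposited table. Psma5 stood at 50.7 FPKM in Srf KO and 34.4 FPKM in WT, a log2 fold of 0.56 ± 0.20 (adjusted p = 0.0154) in the authors' deposited table. Psma4 lies on mm10 chromosome 9, from 54950257 to 54958030, in a locus row shared with AY074887, so their reads may not be told apart. Psma5 lies on chromosome 3, from 108256926 to 108279952. The remaining ubiquitous alpha genes, Psma1, Psma2, Psma3, Psma6 and Psma7, had log2 folds from 0.30 to 0.38 and were not called. The most abundant, Psma2, had 163 FPKM in Srf KO and 126 FPKM in WT (0.38 ± 0.18, adjusted p = 0.0949) by the authors' deposited table. Psma8, an alpha subunit known from testis, had the largest log2 fold of all members, 1.37 ± 0.67, but stood at only 0.285 FPKM in Srf KO and 0.111 FPKM in WT and was not called in the authors' deposited table. Without Psma8 the summed level of the alpha ring was 730 FPKM in Srf KO and 559.6 FPKM in WT.

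The constitutive beta ring showed a wider range. All 7 of its genes had the higher value in Srf KO, with log2 folds from 0.05 to 0.56, and 2 were called. Psmb2 had 79.3 FPKM in Srf KO and 53.9 FPKM in WT (0.56 ± 0.20, adjusted p = 0.0169) in the authors' deposited table. Psmb4 had 138 FPKM in Srf KO and 95.8 FPKM in WT (0.53 ± 0.19, adjusted p = 0.0167) in the authors' deposited table. Both encode structural, non-catalytic subunits, on mm10 chromosome 4 (126677643 to 126709715) for Psmb2 and chromosome 3 (94884324 to 94886958) for Psmb4. Psmb3, another structural subunit, was at 137 FPKM in Srf KO and 133 FPKM in WT, a log2 fold of 0.05 ± 0.19 by the authors' deposited table. Psmb1 missed the threshold at 103 FPKM in Srf KO and 77.0 FPKM in WT (0.42 ± 0.19, adjusted p = 0.0672) in the authors' deposited table. Psmb11, the catalytic subunit known from thymic epithelium, stood at 0.513 FPKM in Srf KO and 0.532 FPKM in WT by the authors' deposited table. The genotypes therefore lay close together for Psmb3 and Psmb11 and furthest apart for Psmb2.

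Each immunoproteasome subunit was measured beside the constitutive subunit it replaces. FPKM is scaled to transcript length, so levels can be set side by side between genes, although named processed pseudogenes of Psmb5, Psmb6 and Psmb7 may share reads with them. Psmb9 was the only immunoproteasome gene called. It had 154 FPKM in Srf KO and 102 FPKM in WT (0.60 ± 0.19, adjusted p = 0.00702) in the authors' deposited table. Its constitutive counterpart Psmb6 had 54.8 FPKM in Srf KO and 44.3 FPKM in WT (0.31 ± 0.20, adjusted p = 0.214) in the authors' deposited table. Psmb9 was thus the more abundant of its pair in both genotypes, making up 73.7% of the pair's summed FPKM in Srf KO and 69.6% in WT. The difference in log2 fold, Psmb9 minus Psmb6, was 0.29 with a standard error of 0.27 and a 95% interval from -0.24 to 0.83, which includes 0.

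Psmb8 also exceeded its counterpart, and neither was called. Psmb8 had 101 FPKM in Srf KO and 84.7 FPKM in WT (0.25 ± 0.19, adjusted p = 0.296) in the authors' deposited table. Psmb5 had 66.1 FPKM in Srf KO and 62.3 FPKM in WT (0.09 ± 0.20, adjusted p = 0.766) in the authors' deposited table. Psmb8 made up 60.4% of the pair in Srf KO and 57.6% in WT. The log2 fold of Psmb8 minus that of Psmb5 was 0.16 ± 0.27, with a 95% interval from -0.37 to 0.69.

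Psmb10 stood apart from the other immunoproteasome genes by its low level. It had 19.8 FPKM in Srf KO and 18.5 FPKM in WT (0.10 ± 0.21, adjusted p = 0.744), against 117 FPKM in Srf KO and 95.5 FPKM in WT for Psmb7 (0.29 ± 0.19, adjusted p = 0.223), in the authors' deposited table. Psmb10 made up 14.5% of the pair in Srf KO and 16.2% in WT. The log2 fold of Psmb10 minus that of Psmb7 was -0.18 ± 0.28, with a 95% interval from -0.74 to 0.37. Over all 3 pairs the immunoproteasome genes held 53.6% of the summed FPKM in Srf KO and 50.3% in WT. No exchange of constitutive for immunoproteasome transcripts, or the reverse, was detectable with these errors.

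**Figure D3:**
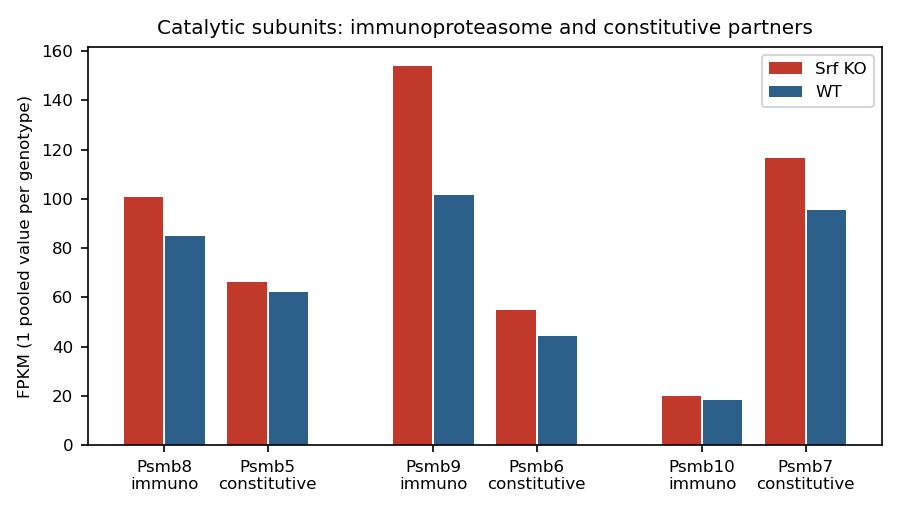
FPKM of the 3 immunoproteasome genes, each beside its constitutive counterpart, with bars for the authors' pooled value in Srf KO (left) and WT (right). Psmb8 and Psmb9 exceed Psmb5 and Psmb6 in both genotypes, whereas Psmb10 is far below Psmb7.

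Psmb9 and Psmb8 lie in the MHC region of chromosome 17 beside the peptide transporter genes Tap1 and Tap2, which carry proteasome products into the endoplasmic reticulum. On mm10 Psmb9 runs from 34182099 to 34187330 and Psmb8 from 34198195 to 34201454. The 4 neighbours did not move together. Tap1 was called higher, at 53.0 FPKM in Srf KO and 34.8 FPKM in WT (0.61 ± 0.19, adjusted p = 0.0061), in the authors' deposited table. Tap2 was called lower, at 24.8 FPKM in Srf KO and 41.9 FPKM in WT (-0.75 ± 0.19, adjusted p = 0.000454), in the authors' deposited table. Psmb9 and Tap1 are transcribed in opposite directions and overlap by 212 bases in the GENCODE M21 annotation (GRCm38). The library kit does not keep the strand, so strand could not assign reads from that overlap to 1 of them. However, the Psmb9 locus behind the deposited values ends at 34187330, short of the Tap1 start at 34187553 in that annotation. No other gene shares the locus row of Psmb9. Whether such reads touched either level was not tested.

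The start regions of 4 members are printed because they carry the called immunoproteasome gene, its uncalled neighbour, the called chaperone Psmg1, and the single member with a CArG box, the element that SRF binds. Each is 300 bases of RefSeq sequence (GRCm38.p6), 250 before and 50 after the annotated start, read 5′ to 3′ on the gene's own strand, with the matches named here in capitals and other matches left in lower case. They are chr17:34187281-34187580 on the minus strand for Psmb9 (GC box GGGCGG and the reverse of CCAAT) and chr17:34197945-34198244 on the plus strand for Psmb8. Capitals in Psmb8 mark an interferon regulatory factor motif, a pair of GAAA with 3 bases between, on the reverse strand and the GAS motif TTCNNNGAA. They are chr16:95990911-95991210 on the minus strand for Psmg1 (GAS, the ETS motif CCGGAAG and the nuclear respiratory factor 1 motif) and chr12:55383972-55384271 on the plus strand for Psma6 (CArG box).
Psmb9: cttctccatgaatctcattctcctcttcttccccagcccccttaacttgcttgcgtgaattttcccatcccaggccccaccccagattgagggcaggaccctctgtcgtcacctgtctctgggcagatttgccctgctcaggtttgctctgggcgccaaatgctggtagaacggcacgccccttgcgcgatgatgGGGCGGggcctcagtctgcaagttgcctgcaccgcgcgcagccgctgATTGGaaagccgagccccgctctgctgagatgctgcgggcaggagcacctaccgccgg
Psmb8: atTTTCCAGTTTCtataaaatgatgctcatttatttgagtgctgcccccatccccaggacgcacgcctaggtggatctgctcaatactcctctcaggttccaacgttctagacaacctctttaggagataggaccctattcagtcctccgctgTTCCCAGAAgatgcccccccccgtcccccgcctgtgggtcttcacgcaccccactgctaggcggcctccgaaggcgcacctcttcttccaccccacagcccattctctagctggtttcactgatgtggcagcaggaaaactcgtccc
Psmg1: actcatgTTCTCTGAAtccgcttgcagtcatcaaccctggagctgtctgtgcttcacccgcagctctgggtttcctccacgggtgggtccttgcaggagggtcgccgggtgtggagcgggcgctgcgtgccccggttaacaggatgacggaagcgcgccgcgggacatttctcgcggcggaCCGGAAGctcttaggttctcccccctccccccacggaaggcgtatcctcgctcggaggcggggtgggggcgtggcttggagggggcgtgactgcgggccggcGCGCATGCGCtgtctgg
Psma6: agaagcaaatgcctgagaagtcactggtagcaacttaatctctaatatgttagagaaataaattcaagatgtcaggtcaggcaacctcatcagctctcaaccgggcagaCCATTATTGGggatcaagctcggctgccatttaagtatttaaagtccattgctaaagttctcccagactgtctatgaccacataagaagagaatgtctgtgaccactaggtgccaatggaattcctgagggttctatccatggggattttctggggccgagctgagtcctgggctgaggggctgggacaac

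Start regions were available for 40 member genes, 5 of the called ones among them, and 14 motifs were searched on both strands. A CArG box was present in 1 of the 40, or 2.5%, against 1.81% of 27025 genes. That member, Psma6, had 127 FPKM in Srf KO and 98.7 FPKM in WT (0.37 ± 0.30, adjusted p = 0.349) in the authors' deposited table, at a locus row shared with Nfkbia and 3 other genes. The match runs from position -141 to position -132 relative to 1 of the annotated starts of Psma6, and its letters are CC, 6 of A or T, then GG. CCGGAAG, the core of ETS factor sites, was present in 14 of 40 members (35.0%), against 9.93% of all genes. It was in 9 of 17 regulatory genes, 1 of 12 core genes and 0 of 3 immunoproteasome genes, and Psmg1 was the only called member with it. GGGCGG was present in 57.5% of members and 38.2% of all genes. TGACNNNGC, the core of the antioxidant response element through which NRF1 (encoded by Nfe2l1) acts on proteasome genes, was present in 15.0% of members and 14.0% of all genes. It was in 0 called members. A looser form, TGANNNNGC, was in 57.5% of members and 45.0% of all genes, and in all 5 called members with a start region. A pair of GAAA with 2 bases between, the core that interferon regulatory factors bind, was in 5 members (12.5%, against 3.99% of all genes) and in 0 of the 3 immunoproteasome genes. With 3 bases between, it was in 5.0% of members, Psmb8 among them, and 3.17% of all genes. GAS was in 7.5% of members and 9.55% of all genes, and CCAAT in 35.0% and 41.1%. The nuclear respiratory factor 1 motif was in 17.5% of members and 5.19% of all genes, and the YY1 motif AAGATGG in 17.5% and 7.28%. The CRE motif TGACGTCA was in 0 members and 2.03% of all genes. For the kappa B motif the shares were 55.0% and 53.5% in a loose form and 2.5% and 1.63% in a strict form. These matches describe the letters of the windows only.

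The regulatory particle had 0 called members among its 20 genes, the 3 chaperones of base assembly included. Their median log2 fold was 0.19 and the values ran from -0.17 to 0.44. The 6 ATPases of the base, Psmc1 to Psmc6, which unfold substrates, had a narrow range of folds, with levels of 37.9 to 52.7 FPKM in Srf KO and 34.9 to 46.0 FPKM in WT and log2 folds from 0.01 to 0.21 by the authors' deposited table. Psmc3 had the lowest, at 46.2 FPKM in Srf KO and 46.0 FPKM in WT (0.01 ± 0.19), and Psmc1 the highest (0.21 ± 0.19), by the authors' deposited table. The scaffold and receptor subunits of the base had a median of 0.01. Psmd4, a ubiquitin receptor, was at 61.9 FPKM in Srf KO and 61.5 FPKM in WT (0.01 ± 0.19) by the authors' deposited table. Psmd2 was at 37.1 FPKM in Srf KO and 40.9 FPKM in WT (-0.14 ± 0.18), and Psmd1 had a log2 fold of 0.21 ± 0.19 by the authors' deposited table.

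The lid, which removes ubiquitin from substrates, had log2 folds from -0.17 to 0.44 over 8 genes. Psmd7, the partner of the deubiquitinase subunit Psmd14, came nearest to a call, at 22.9 FPKM in Srf KO and 16.9 FPKM in WT (0.44 ± 0.20, adjusted p = 0.0797) in the authors' deposited table. Psmd14 itself had 44.9 FPKM in Srf KO and 35.1 FPKM in WT (0.36 ± 0.19, adjusted p = 0.133) in the authors' deposited table. Psmd13 lay lowest, at 48.2 FPKM in Srf KO and 54.2 FPKM in WT (-0.17 ± 0.19, adjusted p = 0.507), by the authors' deposited table. Psmd8 was the most abundant lid gene, at 74.5 FPKM in Srf KO and 64.1 FPKM in WT by the authors' deposited table. Psmd3, Psmd6, Psmd11 and Psmd12 were not called either. Shfm1 and Adrm1, a lid subunit and a ubiquitin receptor outside the Psm names, had log2 folds of 0.17 and -0.11 and were not called. The chaperones of base assembly, Psmd5, Psmd9 and Psmd10, had log2 folds of 0.23 ± 0.20, 0.25 ± 0.25 and -0.01 ± 0.23.

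Of the activators, the interferon-inducible pair Psme1 and Psme2, which form the PA28 cap of the core, held the highest levels. Psme2 was the most abundant member of all, at 190.0 FPKM in Srf KO and 144 FPKM in WT (0.40 ± 0.21, adjusted p = 0.12), in the authors' deposited table. Psme1 just missed the threshold at 167 FPKM in Srf KO and 124 FPKM in WT (0.43 ± 0.19, adjusted p = 0.0535) in the authors' deposited table, with its locus row shared with Fam158a. The ratio of Psme1 to Psme2 was 0.879 in Srf KO and 0.857 in WT. Psme3, the nuclear PA28 subunit, had 37.1 FPKM in Srf KO and 31.0 FPKM in WT (0.26 ± 0.19) by the authors' deposited table. Psme4, which encodes the activator PA200, had 13.0 FPKM in Srf KO and 15.2 FPKM in WT (-0.22 ± 0.19, adjusted p = 0.356), the lowest log2 fold of all members, in the authors' deposited table. The inhibitor gene Psmf1 had 3.38 FPKM in Srf KO and 3.70 FPKM in WT (-0.13 ± 0.23) by the authors' deposited table.

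Among the assembly chaperones, which build the alpha ring, Psmg1 and Psmg2 had the largest log2 folds of any called member. The proteins of this pair work as a dimer. Psmg1 (chromosome 16, 95979935 to 95990903) had 13.1 FPKM in Srf KO and 7.34 FPKM in WT, a log2 fold of 0.84 ± 0.25 or 1.79-fold (adjusted p = 0.00398), in the authors' deposited table. Psmg2 (chromosome 18, 67641599 to 67654162) had 9.58 FPKM in Srf KO and 5.22 FPKM in WT, a log2 fold of 0.88 ± 0.26 or 1.84-fold (adjusted p = 0.00414), in the authors' deposited table. The genes of the other dimer of the family, Psmg3 and Psmg4, were not called. Psmg3 had 10.7 FPKM in Srf KO and 11.3 FPKM in WT (-0.08 ± 0.26), and Psmg4 had 10.4 FPKM in Srf KO and 7.84 FPKM in WT (0.40 ± 0.40) by the authors' deposited table. Pomp, the chaperone that completes the beta ring and is not named by the Psm rule, was called higher at 167 FPKM in Srf KO and 109.8 FPKM in WT (0.60 ± 0.19, adjusted p = 0.00629) in the authors' deposited table.

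The log2 folds of the whole table depended on transcript length, and proteasome transcripts are short, with a median of 1476 nucleotides against 2698 for all genes. Genes under 1200 nucleotides had a median log2 fold of 0.36 and 25.0% of them were called higher, whereas longer genes had a median of 0.03 and 16.7% called higher. Of 15 members under 1200 nucleotides 5 were called, with a median log2 fold of 0.40. Of 33 longer members 2 were called, Psma5 and Psmb9, with a median of 0.21. After the running median over length was subtracted, 0 of 48 members were called, against 33.0% of all genes so adjusted (14.4% higher and 18.6% lower), and the median of the members was 0.00. With the standard errors of the authors' deposited table, Psmb9 then had a log2 fold of 0.33 (adjusted p = 0.181), Psmg1 of 0.48 (adjusted p = 0.132) and Psmg2 of 0.51 (adjusted p = 0.121). The adjusted medians were 0.23 for the alpha ring, -0.06 for the constitutive beta ring, 0.01 for the immunoproteasome genes and -0.04 for the regulatory particle. The part of transcript length in the calls of single members was not tested further. When the trend on expression level was removed as well, 8 members were called, against 28.0% of all genes, and 5 of the 8 were among the 7 of the deposited test. Psmg1 and Psmg2 were then not called, Psma2, Psma3 and Psmb1 were, and Psmb9 had a log2 fold of 0.67.

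**Figure D4:**
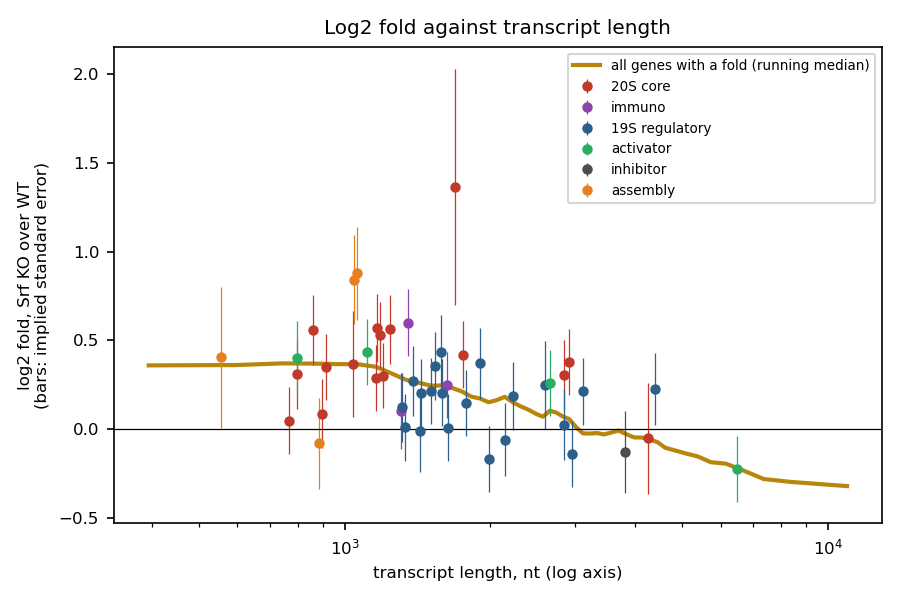
Log2 fold, Srf KO over WT, of each proteasome gene against the length of its main transcript on a log axis, with bars for the implied standard error. The line is the running median of all genes with a fold, and the proteasome genes scatter around it, with Psmg1, Psmg2 and the scarce Psma8 furthest above.

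The genes that act with the proteasome included calls in both directions, at shares close to those of all genes. Of 25 tested partners outside the Psm names, 4 were called higher and 5 lower, with a median log2 fold of -0.11, against 17.7% higher and 17.8% lower among all genes tested. Genes that supply ubiquitin lay among the lower ones. The polyubiquitin gene Ubb had 766 FPKM in Srf KO and 1148 FPKM in WT (-0.58 ± 0.24, adjusted p = 0.0425) in the authors' deposited table. Uba1, the main ubiquitin-activating enzyme, had 61.5 FPKM in Srf KO and 103 FPKM in WT (-0.74 ± 0.18, adjusted p = 0.000467) in the authors' deposited table. Rps27a, a ribosomal fusion gene of ubiquitin, was instead called higher (0.52 ± 0.19).

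Ngly1 and Ddi2, which process the transcription factor NRF1 that induces proteasome genes, were also called lower. Ngly1 had 15.2 FPKM in Srf KO and 25.4 FPKM in WT (-0.73 ± 0.22, adjusted p = 0.0038), and Ddi2 had 5.21 FPKM in Srf KO and 9.002 FPKM in WT (-0.79 ± 0.30, adjusted p = 0.0303), in the authors' deposited table. Nfe2l1, which encodes NRF1, had 17.5 FPKM in Srf KO and 22.9 FPKM in WT (-0.39 ± 0.22, adjusted p = 0.155) in the authors' deposited table and was not called. The proteasome-bound deubiquitinase gene Usp14 (0.82 ± 0.25) and the thioredoxin-like gene Txnl1 (0.65 ± 0.20) passed the test as higher in Srf KO. The length adjustment ended the calls of Pomp, Rps27a and Ddi2 and left Uba1, Ngly1, Usp14, Txnl1 and Ubb called.

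MHC class I presentation, which uses the peptides the proteasome makes, spanned a wider range of differences than the proteasome genes. Of 19 tested genes, 8 were called higher and 2 lower, with a median log2 fold of 0.22 and a range from -0.75 to 1.56. The shares among all genes tested were 17.7% higher and 17.8% lower. H2-K1 had 783 FPKM in Srf KO and 275 FPKM in WT (1.51 ± 0.20, adjusted p = 7.12e-12) in the authors' deposited table, though reads of near-identical H2 class I genes may not be assigned with certainty. B2m, the light chain of class I, had 2926 FPKM in Srf KO and 1519 FPKM in WT (0.95 ± 0.21, adjusted p = 5.79e-05), in the authors' deposited table. Nlrc5, the activator of class I genes, had 6.06 FPKM in Srf KO and 3.11 FPKM in WT (0.96 ± 0.21, adjusted p = 4.36e-05), in the authors' deposited table. Irf1, which drives Psmb9 and Tap1 in many cells, was not called in the authors' deposited table, at 68.0 FPKM in Srf KO and 95.7 FPKM in WT, and was called lower after the length adjustment. The list of 24 genes induced by interferon held 17 higher and 0 lower calls, with a median log2 fold of 0.81.

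The COP9 signalosome and the TRiC chaperonin, other large complexes of the cell, also had no gene called lower. Among all genes tested, 17.7% were called higher and 17.8% lower. Lists of 8 or 9 genes are too small to tell 0 lower calls from that share. COP9, which resembles the proteasome lid, had 0 of 9 genes called and a median log2 fold of 0.23, with a range from 0.03 to 0.41. TRiC, which folds actin and tubulin, had 3 of 8 genes called higher, 0 lower and a median of 0.39. Its called genes were Cct3 (0.79), Tcp1 (0.69) and Cct8 (0.57).

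**Figure D5:**
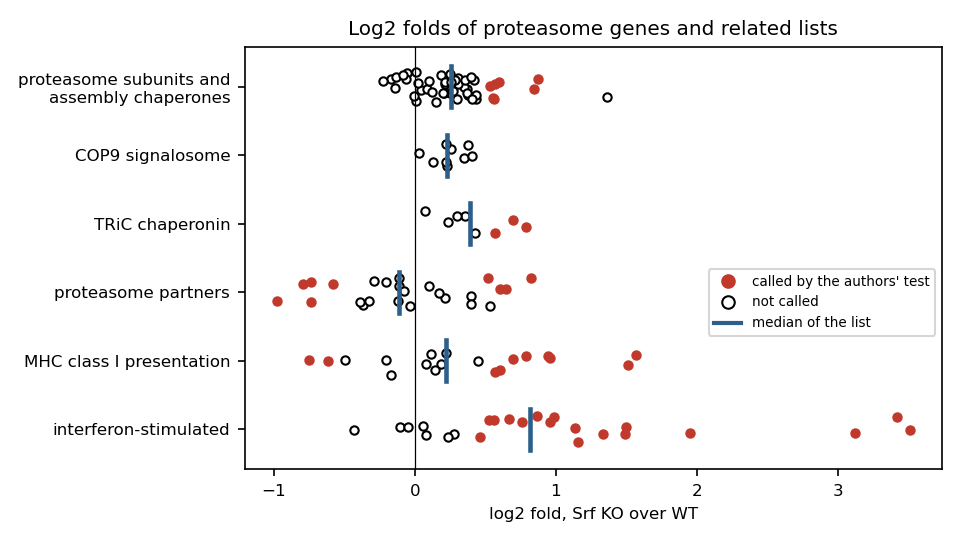
Log2 fold, Srf KO over WT, of the proteasome genes and of 5 related gene lists, with filled circles for genes the authors' test called, open circles for the rest and a vertical bar for each median. The proteasome and COP9 genes lie mostly just above 0, while proteasome partners and MHC class I genes spread to both sides.

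As a check of the labels, Srf stood at 0.439 FPKM in Srf KO and 13.7 FPKM in WT (-4.97 ± 0.27) in the authors' deposited table. Of 8 tested neutrophil markers 5 were called lower and 1 higher, with a summed level of 20501 FPKM in Srf KO and 31316.5 FPKM in WT, and 5 more were left untested for too many reads. Most of both sums was Retnlg, at 17116.9 FPKM in Srf KO and 24805.2 FPKM in WT, which was not called (adjusted p = 0.106 in the authors' deposited table). The neutrophil marker called higher was Mpo (0.81 ± 0.19), and Elane was not called (0.60 ± 1.27). Those called lower were Cxcr2 (-1.57), Csf3r (-1.47), Mmp8 (-1.19), Mmp9 (-0.94) and Itgam (-0.73). The neutrophil markers thus did not move together, and what divides them was not tested. Markers of other cell types were mostly called higher, whereas among all genes tested 17.7% were called higher and 17.8% lower. Among 13 markers of T and NK cells, 12 were called higher and 0 lower, with a summed level of 118 FPKM in Srf KO and 49.6 FPKM in WT. Of 10 B and plasma cell markers 6 were called higher and 0 lower, with a sum of 225 FPKM in Srf KO and 128 FPKM in WT. Of 11 monocyte and macrophage markers 8 were called higher and 3 lower (sums of 265 FPKM in Srf KO and 238 FPKM in WT), and of 11 dendritic cell markers 7 were higher and 1 lower (349 FPKM in Srf KO and 174 FPKM in WT). Erythroid, platelet, and eosinophil and basophil markers were called higher in 8 of 10, 7 of 10 and 9 of 10, with 0 lower. Gp6, at 0 in WT, was the only one of these markers listed at 0. Lymphocytes and dendritic cells are rich in immunoproteasome, so these values stand beside that of Psmb9, and their part in it was not tested.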

How the data were processed

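Sorted neutrophils of 2 Srf KO and 2 WT samples were compared, grouped by the genotype label. Per the submitters' processing notes, the tools were Cufflinks 2.0.0, TopHat2 2.0.0 and CASAVA 1.8.1 with build mm10, settings not given, and Illumina TruSeq v2 libraries per the labels' protocols. FPKM values were deposited by the authors, 1 per genotype. The deposited log2 fold and test statistic (a score) run WT over KO and KO over WT, and the fold's sign was turned. The p-value and q-value (adjusted p) are those the authors deposited, and the q-value was checked to be the Benjamini-Hochberg adjustment over genes of status OK. Values per sample were planned for but the tables hold none, so the authors' test is the main result, and whether samples came from separate mice is not given, so its p-values may measure technical spread.

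The standard error is the absolute fold over the absolute statistic. Transcript lengths came from GENCODE M21 (99.1% of genes with a fold, all 48 members). Folds were adjusted by a running median along transcript length (50 bins, smoothing width 5), then retested with the same errors over all genes. That step was tried on simulated data with a straight-line trend on log2 length and no trend on expression level. The simulation therefore does not cover a trend on expression level. Alternatives were thresholds of 0.01 and 0.10, filters at 1 and 5 FPKM, a 2-fold minimum, a pseudocount of 1, centred folds, and isoform, transcription start site (TSS) and coding sequence tables. Named genes were Srf, the catalytic pairs, every called member, the extremes of each structural group, and up to 6 called genes per list. Genes outside that rule (Rps27a, Ddi2, Ubb, Nfe2l1, Tap1, Irf1 and others named with values) were chosen after their values were seen. Members and lists were chosen with earlier results of these data known. Some items are not reported here. Calculations used scipy 1.17.1, pandas 2.3.3 and numpy 2.4.6 under Python 3.11.15, with figures from matplotlib 3.10.9.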

Additional observations from a re-analysis of the deposited data

How the results depend on the processing

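The count of 7 members called higher was 3 at an adjusted p of 0.01, 12 at 0.10, 0 with a 2-fold minimum and 0 after length adjustment. It was 19 when folds were centred on the median of genes of 20 FPKM or more, which raises every log2 fold by 0.17 and was chosen after seeing the data. That setting also called Psmb6 (0.48) and Psmb7 (0.46). Length adjustment moved the group medians to 0.10 (core), -0.041 (regulatory), 0.053 (activators), 0.011 (immunoproteasome) and 0.26 (assembly chaperones). With expression level adjusted too they were 0.41, 0.21, 0.39, 0.35 and 0.34, in that order. Psmb9 lost its call under the 2-fold minimum (log2 fold 0.60) and after length adjustment (0.33), but was called when length and expression were both adjusted (0.67). The cause was not tested beyond these settings. No member was called lower under any setting with a test, and the log2(FPKM + 1) scale gave values only. No paired analysis was possible because the tables hold 1 pooled value per genotype, and analyses without each sample were not run for the same reason.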

Other observations

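Most members have a single annotated transcript in the deposited tables, and 4 genes had more than 1 isoform. Psme2 was the only one with separate start site groups. In the authors' deposited table, 1 of these groups had 106 FPKM in Srf KO and 61.8 FPKM in WT (0.78 ± 0.74, adjusted p = 0.453), while the other had 84.1 FPKM in Srf KO and 82.3 FPKM in WT (0.03 ± 0.53, adjusted p = 0.979). The standard errors of both exceed that of the gene as a whole, so no change in start site use was detectable. The isoform, TSS and coding sequence tables each called 7 members higher, the same 7 genes as the gene table.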
